A study of Canis lupus familiaris with 6 samples.

Results

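The early genes examined here were FOS, FOSL1, FOSL2, JUN, JUNB, JUND, ATF3, EGR1, IER3 and MYC, 10 genes that respond quickly to growth factor and stress signals. Their members were read from all array probes, control spots left out, whose gene name in the scanner output equalled one of these symbols. That gave 13 of the 43603 probes on the array, with a pair of probes each for FOSL2, EGR1 and IER3 and a single probe for every other gene. All 13 were well above background on all 6 arrays.

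The cells were MDCK cells, an epithelial line from dog kidney. They carried β-catenin Δ131 (β-cat ΔN) fused to mCherry, a stabilised form lacking the first 131 residues that was expressed constitutively, together with GFP-RasV12 under a tetracycline-inducible promoter. In single culture (n = 3) the β-cat ΔN/RasV12 cells grew alone. In mix culture (n = 3) they grew among β-cat ΔN cells without RasV12, at 10 surrounding cells for each RasV12 cell. Both groups were plated on collagen type I, treated with tetracycline for 24 h, detached and sorted for GFP, and total RNA of the sorted cells was hybridised with Cy3 label to Agilent canine arrays. Surrounding cells were therefore not profiled, the β-catenin mutant was shared by both groups, and parental MDCK cells without it were not part of the comparison. The question was which genes of the β-cat ΔN/RasV12 cells differed once β-cat ΔN cells surrounded them. In such bulk samples, fewer cells expressing a gene and less RNA per cell cannot be told apart. Single culture held RasV12 cells only, whereas in mix culture they were the minority, so the sorted share of the cells differed between groups. Any difference that arose from this handling cannot be told apart from one due to the surrounding cells. The labels do not say whether replicates came from separate cultures, so p-values measure the spread between these samples, which may be technical.

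AP-1 is a dimer of basic leucine zipper (bZIP) proteins. FOS, FOSL1 and FOSL2 must pair with a JUN protein, whereas JUN, JUNB and JUND can also pair with each other, and the composition of the dimer decides how strongly it activates its genes. Ras acts through the ERK kinases on the promoters of FOS and EGR1 and on the stability of FOS-family proteins, and FOSL1 and MYC are well-known genes downstream of Ras and β-catenin signalling. ATF3 is a stress-induced bZIP factor that often represses transcription, EGR1 a zinc finger factor, and IER3 a small early response protein linked to cell survival.

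The probes on which the results turned are printed 5′ to 3′ as the array carries them, in lower case throughout since no stretch was singled out. They show which part of each transcript was read, and the FOSL2 and FOSL1 probes are set together because the values of these related genes lay in opposite directions. Positions are CanFam3.1 coordinates from the scanner output, and no exon or UTR annotation was used here. The FOSL2 probes lay at chr17:22341420-22351878 (transcript base 1091) and chr17:22360314-22360373 (base 1512). The first of these covered 10459 bp of genome with 60 bases of sequence and so crossed a splice junction. The FOSL1 probe lay at chr18:51373542-51373601, the MYC probe at chr13:25205246-25205305 and the ATF3 probe at chr7:10794088-10794147, for which the first 30 bases are given.
FOSL2 (base 1091): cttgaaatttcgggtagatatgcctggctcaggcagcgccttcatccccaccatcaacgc
FOSL2 (base 1512): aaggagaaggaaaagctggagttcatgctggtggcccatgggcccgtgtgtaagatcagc
FOSL1: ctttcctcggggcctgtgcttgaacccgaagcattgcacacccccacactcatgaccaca
MYC: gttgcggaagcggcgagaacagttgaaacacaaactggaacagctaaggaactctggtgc
ATF3: accctgaagccattggagatctgacttcct

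The arrays differed by slide. Slide 1 held replicate 1 of each group, and slide 2 held replicates 2 and 3 of each group and was scanned at 5 µm instead of 3 µm, so each slide held both groups equally. In a limma fit with both group and slide, the signal differed between slides for 47.2% of the 26623 probes tested. The same held for 8 of the 13 early gene probes. Between 61.11% and 65.66% of spots per array were well above background, and no spot was saturated. All 7 kidney epithelial markers on the array were above background on all 6 arrays, whereas COL3A1, DCN and PDGFRA of fibroblasts and PTPRC and LYZ of leukocytes were above it on none. The summed kidney epithelial signal, in multiples of the array's 75th percentile, was 460.5 to 570.8 in single culture and 383.4 to 467.7 in mix culture. The ranges overlapped. Of the 7 markers, 1 had a log2 change of mix culture over single culture above 0 and 6 below. The largest were CDH1 at -0.47 (limma adjusted p = 0.384, or 0.0444 with slide as a block) and PAX8 at 0.47 (0.776 and 0.0634). All 3 CDH1 probes were called lower in mix culture with the slide block (limma adjusted p = 0.0415 to 0.047). HRAS, whose family holds the introduced oncoprotein, had a mean normalised log2 signal of 6.42 (SD 0.43) in single culture, against 5.79 (SD 0.36) in mix culture, with an adjusted p of 0.608 from limma and of 0.065 when slide was a block. The part of this difference in the results that follow was not tested.

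No early gene probe was called between mix culture and single culture when slides were ignored, whereas FOSL2 and ATF3 were called higher and FOSL1 lower in mix culture once each slide was compared within itself. Values are normalised log2 signals, in which 0 is the array's 75th percentile, and a level can be compared between arrays but not between probes. In the limma fit without a block, with Benjamini-Hochberg adjustment, 0 of the 13 early gene probes had an adjusted p under 0.05, against 235 of all 26623 tested probes (0.883%). At an unadjusted p under 0.05, 4 early gene probes passed (ATF3, both FOSL2 probes and MYC), against 8.71% of all tested probes. With slide as a block, limma called 4 of the 13 (both FOSL2 probes, ATF3 and FOSL1), against 1917 tested probes (7.2%). Of these, 3 were higher in mix culture (3.98% of tested probes) and 1 was lower (3.22%). Pairing the arrays by replicate number instead called the same 4 probes (background 5.25%).

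The direction of the early gene probes was mostly towards mix culture. Of the 13 probes, 11 had a log2 change above 0, against 42% of all tested probes. By gene, at the brightest probe, this held for 8 of 10. The median log2 change of the 13 probes was 0.32, against -0.05 over all tested probes. Array by array, the median deviation of these probes from their single culture mean was -0.329 to 0.235 in single culture. In mix culture it was 0.177 to 0.56, so the arrays overlapped: single culture replicate 2 lay above mix culture replicate 1, which was on the other slide. The median absolute log2 change of the 13 probes was 0.395, against 0.175 over all tested probes. Every one of the 13 had the same direction on slide 1 as on slide 2, which held for 70.7% of all tested probes. For 5 of the 13 the groups did not overlap (16.5% of tested probes), and in 4 of those mix culture was the higher group (7.85%).

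**Figure D1:**
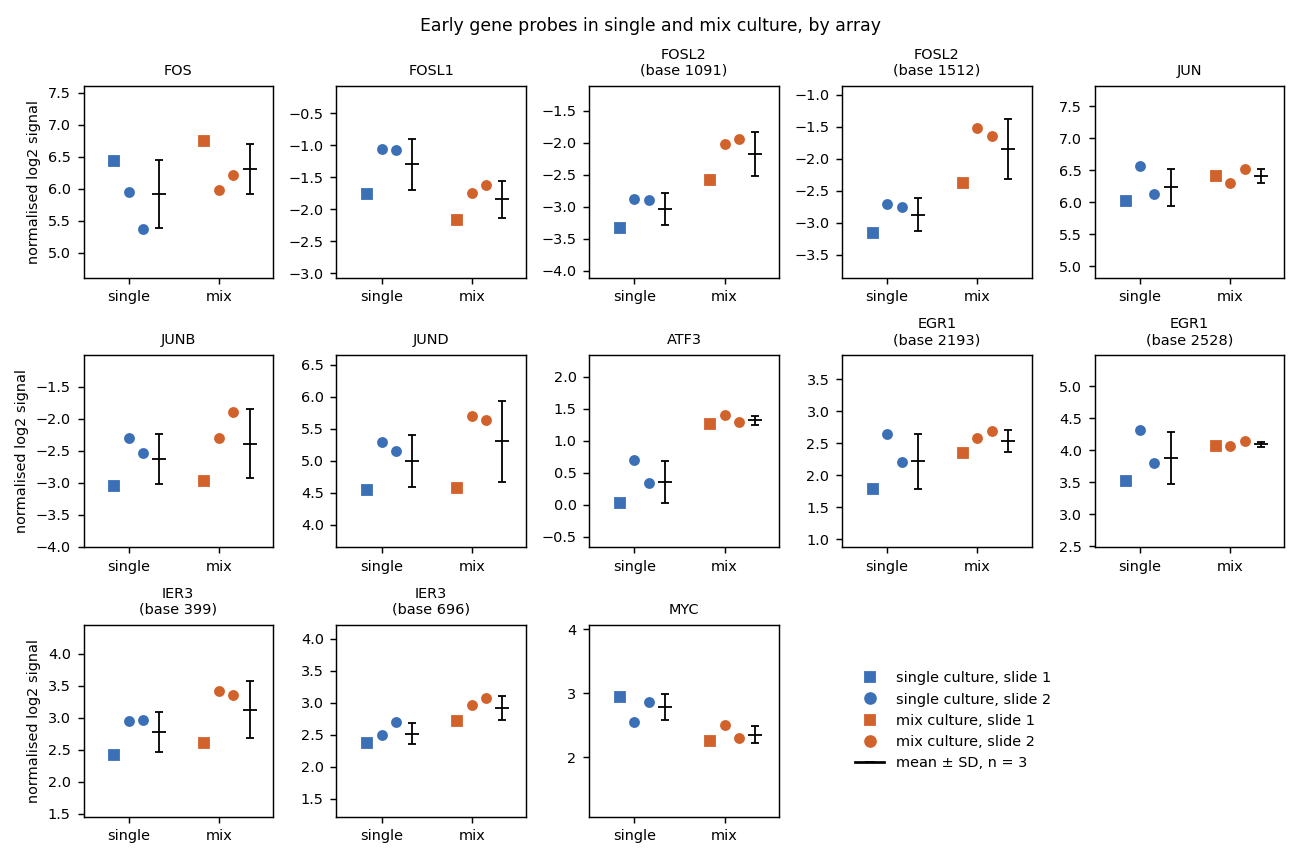
Normalised log2 signal (y axis, 0 being the array's 75th percentile) of the 13 early gene probes in single and mix culture. Each point is 1 array, squares being slide 1 and circles slide 2, bars are the mean ± SD of 3 arrays, and every panel spans the same log2 range; the groups stand apart for both FOSL2 probes, ATF3, the IER3 probe at base 696 and MYC.

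Among the FOS family, FOSL2 lay higher and FOSL1 lower in mix culture on both slides. FOSL2 encodes FRA-2, a FOS relative without a strong activation domain. Its probe at base 1512 read -3.16, -2.70 and -2.75 in the single culture arrays, replicates 1 to 3, and -2.38, -1.52 and -1.64 in the mix culture arrays. All 3 mix culture arrays lay above all 3 single culture arrays, and in each group the slide 1 array was the lowest. The means were -2.87 ± 0.25 and -1.84 ± 0.46 (SD, n = 3), a log2 change of 1.02 (SE 0.265), or 2.03-fold, with a limma adjusted p of 0.227 without a block and 0.00228 with slide as a block (95% interval of the log2 change 0.76 to 1.29). The difference was 0.78 on slide 1 and 1.15 on slide 2.

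The FOSL2 probe at base 1091 read -3.33, -2.88 and -2.90 in single culture and -2.58, -2.02 and -1.95 in mix culture. Again the groups did not overlap, and the slide 1 array was the lowest of each group. Its log2 change was 0.85 (SE 0.23), or 1.81-fold, with a limma adjusted p of 0.254 without a block and 0.00276 with the slide block. The probes share no bases and correlated with r = 0.993 over the 6 arrays. Both were dim, at signals of 20.5 to 62.9. With normexp background correction and an offset of 50, the log2 changes were 0.39 at base 1512 and 0.27 at base 1091. The limma adjusted p without a block was then 0.83 and 0.998. Neither probe was called without a block before normexp either, and normexp was not run with the slide block. An added offset draws the log2 change of a dim probe towards 0. Its share was not separated from that of the background correction.

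FOSL1 encodes FRA-1, the FOS relative most often linked to ERK activity and cell invasion. Its probe read -1.76, -1.06 and -1.07 in single culture and -2.16, -1.75 and -1.62 in mix culture. The mix culture array was the lower on each slide, but the ranges overlapped because the slide 1 array of single culture lay at the level of mix culture on slide 2. Single culture averaged -1.30 ± 0.40, against -1.85 ± 0.29 for mix culture (SD, n = 3). The log2 change was -0.55 (SE 0.252), or 1.46-fold in favour of single culture, with a limma adjusted p of 0.629 without a block and 0.0231 with the slide block (95% interval -0.79 to -0.30). This call did not survive the loss of a slide 2 array. Its adjusted p with the slide block was 0.0615 without single culture replicate 2, 0.103 without single culture replicate 3, 0.0774 without mix culture replicate 2 and 0.0681 without mix culture replicate 3. The FOSL1 probe was dim as well, at signals of 51.9 to 82.0. Normexp with its offset of 50 moved the log2 change to -0.28 (limma adjusted p = 0.998 without a block).

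Because FOSL2 and FOSL1 compete for the same JUN partners, their signals were also set against each other within each array, a comparison chosen after the values were seen and given without a test. The log2 ratio of the FOSL2 probe at base 1512 to the FOSL1 probe was -1.40, -1.64 and -1.68 in single culture and -0.21, 0.23 and -0.02 in mix culture. The size of such a ratio depends on the affinity of the probes. Its shift between arrays does not where both signals stand far above background, but the FOSL2 and FOSL1 probes were dim. It shifted by 1.57 on the log2 scale, 2.98-fold, and by 1.19 on slide 1 and 1.76 on slide 2. With the FOSL2 probe at base 1091 the shift was 1.40. Under normexp with its offset of 50 these shifts were smaller, at 0.67 (1.59-fold) and 0.54 (1.46-fold).

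FOS, the founding member of the family and the gene most quickly induced by serum, was without a call. It read 6.43, 5.94 and 5.37 in single culture and 6.74, 5.97 and 6.21 in mix culture (chr8:48334037-48334096). Mix culture was higher on both slides, by 0.31 and 0.44, but replicate arrays of single culture on slide 2 alone differed by more than that. The log2 change was 0.40, or 0.42 under normexp (SE 0.316 without it, limma adjusted p = 0.85 without a block and 0.173 with one for slide).

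None of the 3 JUN genes was called, with or without the slide block. JUN, the partner that carries most AP-1 activity, read 6.02, 6.56 and 6.12 in single culture and 6.41, 6.30 and 6.51 in mix culture, with ranges that overlapped. Its log2 change was 0.17 (95% interval -0.28 to 0.62), with an adjusted p of 0.918 in limma, or 0.487 under the slide block. JUND, a constitutively expressed member, read 4.54, 5.30 and 5.15 in single culture and 4.58, 5.70 and 5.64 in mix culture. Its difference was 0.04 on slide 1 and 0.44 on slide 2, for a log2 change of 0.31 (95% interval -0.52 to 1.14, adjusted p = 0.925, and 0.166 with the slide block). JUNB, which often antagonises JUN, was measured by a dim probe with 83.3% G and C, at signals between 24.7 and 43.0. Its log2 change was 0.24 (95% interval -0.51 to 0.99, adjusted p = 0.943), and the sign turned (-0.006) without mix culture replicate 3. These intervals, without a block, hold a change of the size of that of FOSL1 towards mix culture but not towards single culture. With the slide block the 95% intervals were -0.17 to 0.52 for JUN, 0.025 to 0.59 for JUND and -0.085 to 0.56 for JUNB. They are not adjusted for the number of probes tested.

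Besides FOSL2, ATF3 was the gene called higher in mix culture with the slide block. It read 0.03, 0.70 and 0.35 in single culture and 1.26, 1.40 and 1.30 in mix culture. Each mix culture array lay above each single culture array, and the mix culture arrays of both slides were close together. The means were 0.36 ± 0.34 and 1.32 ± 0.07 (SD, n = 3), a log2 change of 0.96 (SE 0.201), or 1.95-fold, with a limma adjusted p of 0.119 without a block and 0.00663 with the slide block (95% interval 0.64 to 1.29). The difference was 1.23 on slide 1 and 0.83 on slide 2. With each array left out in turn under the slide block, ATF3 and both FOSL2 probes stayed called in all 6 fits, with ATF3 closest to the threshold without single culture replicate 3 (adjusted p = 0.0462). With no block, neither gene was called with any array left out.

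EGR1 and IER3 were each read by a pair of probes. EGR1 lay higher in mix culture on both slides, by 0.56 and 0.20 at base 2193 (chr11:26048514-26048573) and by 0.55 and 0.05 at base 2528 (chr11:26048849-26048908). Single culture replicate 2 was above both mix culture arrays of its slide at base 2528 and between them at base 2193, so the groups overlapped. The log2 changes were 0.32 (SE 0.244) and 0.22 (SE 0.224), with limma adjusted p of 0.84 and 0.906 (0.215 and 0.438 with the slide block). The EGR1 probes correlated with r = 0.948 over the 6 arrays.

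IER3 at base 696 (chr12:529391-529450) read 2.37, 2.49 and 2.69 in single culture and 2.71, 2.96 and 3.08 in mix culture. The groups did not overlap, although the highest single culture array and the lowest mix culture array differed by little. Its log2 change was 0.40 (SE 0.174), with an adjusted p of 0.593 in limma, or 0.069 under the slide block. The IER3 probe at base 399 (chr12:529688-529747) gave 0.35 (SE 0.274, adjusted p = 0.845, and 0.0889 with the slide block), and its groups overlapped. On the authors' own normalised values, with the slide block, the base 696 probe joined the 4 others at an adjusted p of 0.0499, making 5 of 13 called against 6.86% of tested probes.

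MYC, the bHLH factor that drives growth and ribosome genes, was the other probe besides FOSL1 below 0. It read 2.94, 2.56 and 2.87 in single culture and 2.26, 2.51 and 2.30 in mix culture. The groups did not overlap, but on slide 2 single culture replicate 2 and mix culture replicate 2 were nearly level. The means were 2.79 ± 0.20 and 2.36 ± 0.14 (SD, n = 3), a log2 change of -0.43 (SE 0.172), or 1.35-fold in favour of single culture. Limma gave it an adjusted p of 0.535 without a block, 0.103 with the slide block and 0.153 with the replicate block, so MYC was not called in any of these fits.

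**Figure D2:**
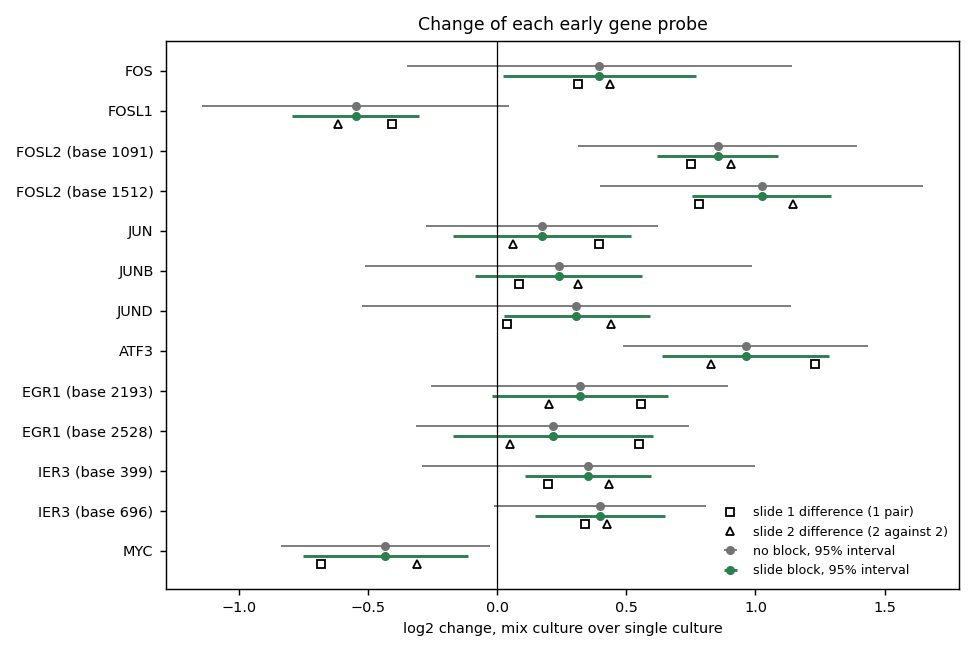
Log2 change of mix culture over single culture (x axis) for each early gene probe, with the 95% interval from limma without a block (grey) and with slide as a block (green). Squares give the difference within slide 1 and triangles that within slide 2; both lie on the same side of 0 for all 13 probes, and FOSL1 and MYC are the genes below 0.

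The wider families of these genes were then read from the same fit, taking the brightest tested probe of each gene. Counts of each list stand beside the median of -0.05 over all tested probes. Of the bZIP relatives of AP-1, 15 of 18 on the array were tested, 9 had a log2 change above 0 and 6 below, and the median was 0.06. CREM, a cAMP-responsive bZIP factor, was called. It read -0.35, -0.73 and -0.56 in single culture and 1.00, 0.84 and 0.83 in mix culture, which gave a change of 1.43 on the log2 scale (SE 0.164, adjusted p = 0.0108 in limma), but its other probe, at base 269, gave -0.05 (adjusted p = 0.981). With no block, the call was lost without single culture replicate 2 (0.0543), single culture replicate 3 (0.0853), mix culture replicate 2 (0.0683) or mix culture replicate 3 (0.0689). With the slide block and all arrays, the limma adjusted p of CREM was 0.000236 (0.801 at its other probe). FOSB, the remaining FOS gene, gave 0.04 (adjusted p = 0.986). Chosen after their values were seen, BATF2 (1.23, adjusted p = 0.00503) and BATF3 (-0.97, adjusted p = 0.00416), which pair with JUN proteins, were called in opposite directions with the slide block. The BATF2 probe was well above background on 2 of the 3 single culture arrays.

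Of 15 other early response genes, all tested, 9 were above 0 and 6 below, with a median of 0.08. The nuclear receptors NR4A1 and NR4A2, which are induced by the same kinds of signal, were called higher in mix culture. NR4A1 read -1.39, -0.53 and -0.77 in single culture and 0.51, 1.34 and 1.42 in mix culture. The log2 change was 1.99 (SE 0.322), the largest in these lists, with an adjusted p of 0.0496 in limma and of 6.2e-05 under the slide block. The unblocked call was lost with quantile normalisation (0.056) and with normexp (0.0656). It was kept without mix culture replicate 1 (0.0228) and lost without single culture replicate 1 (0.0854), 2 (0.094) or 3 (0.194) and without mix culture replicate 2 (0.229) or 3 (0.217). NR4A2 gave 1.35 (SE 0.184, adjusted p = 0.0223) on a dim probe and 1.20 on its other probe (adjusted p = 0.148). With normexp and its offset of 50 the first gave 0.24 (adjusted p = 0.829). Without single culture replicates 2 and 3 and mix culture replicates 2 and 3 in turn, the NR4A2 adjusted p with no block was 0.105, 0.151, 0.119 and 0.0633. With the slide block and all arrays, it was 0.000735 (0.00392 at the other probe). Chosen after their values were seen, the phosphatase gene DUSP1 (1.03, adjusted p = 0.0102), the kinase gene SGK1 (0.85, adjusted p = 0.00349, with 0.18 on its other probe) and EGR4 (-0.56, adjusted p = 0.0266, with 0.0739 at its other probe) were called with the slide block.

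Among genes known as AP-1 targets, PLAU was the one called without a block. Of 14 on the array 10 were tested, 3 above 0 (against 42% of all tested probes) and 7 below, with a median of -0.27. PLAU encodes the urokinase protease and read 0.21, 0.08 and 0.37 in single culture and -1.01, -2.03 and -1.60 in mix culture. The groups lay far apart, and PLAU was called lower in mix culture at both probes, with log2 changes of -1.77 (SE 0.268, limma adjusted p = 0.0357) and -1.73 (adjusted p = 0.00826), against 0.0676% of tested probes called lower and 0.815% called higher. With no block, the first of these calls was kept without mix culture replicate 1 (0.0117) and lost without any other array. With the slide block and all arrays, the limma adjusted p of the PLAU probes was 0.00219 and 0.000564. CCND1, the cyclin D1 gene, chosen after its values were seen, gave -0.73 (adjusted p = 0.0161 with the slide block).

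All 5 tested genes of the ATF3 and ATF4 stress response list were without a call in the fit with no block, with 1 above 0, 4 below and a median of -0.31. With the slide block TRIB3, a pseudokinase gene, was called lower at -0.90 (adjusted p = 0.00812), as was the mTORC1 inhibitor DDIT4 at -0.88 (adjusted p = 0.0407), the latter chosen after its values were seen. Among the upstream factors and kinases, 3 of 11 tested were above 0 and 8 below (median -0.16), and ELK3, a partner of SRF at early gene promoters, was called with the slide block at its brightest probe (-0.45, adjusted p = 0.0328) but not at its other probes (-0.36, adjusted p = 0.0683, and -0.13, adjusted p = 0.482). The EGR1 corepressor NAB1 gave -0.17 (adjusted p = 0.903).

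For MYC, 12 of 13 partners and antagonists were tested, 4 above 0 and 8 below with a median of -0.03, and none was called at its brightest probe. MXI1, which competes with MYC for MAX, gave the largest of these values, -0.46 (limma adjusted p = 0.522). A dimmer MXI1 probe gave -0.76, with an adjusted p of 0.527 without a block and 0.038 with the slide block. Of 14 MYC target genes, all tested, 2 were above 0 and 12 below with a median of -0.20, and none was called without a block. The cyclin gene CCND2 (-0.55) was called with the slide block (adjusted p = 0.0249).

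**Figure D3:**
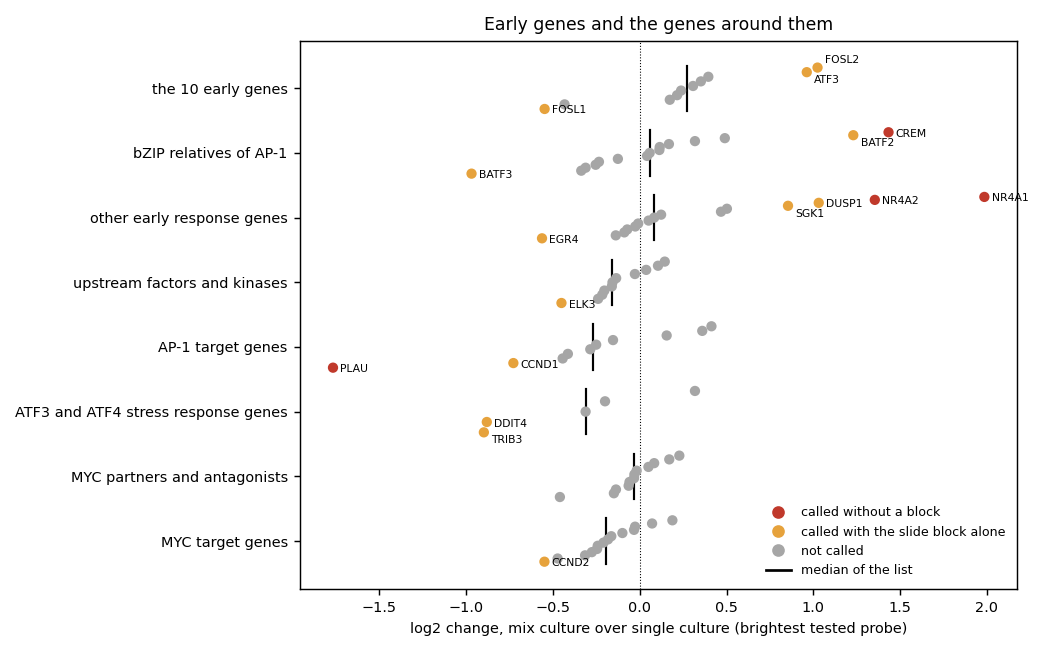
Log2 change of mix culture over single culture (x axis) for each tested gene, brightest probe, by list (the single EGR1 corepressor is left out). Each point is a gene, coloured by whether limma called it without a block, with the slide block alone or not at all, and black lines are list medians, which run from -0.31 (stress response genes) to 0.27 (the early genes).

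The genes most like FOSL2 (base 1512) over the 6 arrays were PSME1, DLA-DMB and PSMB10, with Pearson correlations of 0.9985, 0.996 and 0.9939. PSME1 and PSMB10 encode proteasome components and DLA-DMB a class II antigen-loading chain. Their own log2 changes were 0.39, 1.30 and 0.71, and limma called none of them without a block (adjusted p = 0.575, 0.185 and 0.265). These correlations are a description over arrays that share slide and group.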

How the data were processed

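Scanner output of 6 one-colour Agilent arrays and a table of the authors' normalised values were used. The deposited intensity values were processed signals from Feature Extraction (11.5.1.1 on slide 1, 12.1.1.1 on slide 2), background-subtracted. The deposited log2 values of the authors' table were centred within each slide (medians -0.02 to 0.02) and served as an alternative. There, columns for replicates 2 and 3 of mix culture each matched scanner values of the other replicate.

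Processed signals were converted to log2 after division by the 75th percentile of their array. A probe was tested when well above background on all 3 arrays of at least 1 group (26623 probes), with limma 3.58.1 in R 4.3.3 (lmFit, eBayes, two-sided, Benjamini-Hochberg adjusted p under 0.05). The number of arrays limits the precision. Same-numbered arrays deviated together (r = 0.801, 0.53 and 0.572), as did other slide 2 pairs (0.632 and 0.61), so replicate number and slide were each used as a block. Other background correction, normalisation, filters, the methods' t-test, single arrays left out and slide 2 alone were tried. The script was tested on simulated data.

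Members and gene lists were chosen with earlier results of these data known. All members were named. From each other list, up to 3 called genes by size of change were named, or else the gene with the largest change, together with HRAS and the 3 genes closest in pattern to the early gene probe with the largest change. Other genes are named as chosen after their values were seen.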

Additional observations from a re-analysis of the deposited data

How the results depend on the processing

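The count of probes called over the whole array depended on the block and on the test. It was 235 without a block (217 higher in mix culture), 1917 with slide as a block (1060 higher), 1399 with the replicate block, 1446 with the replicate block after mix culture replicates 2 and 3 were exchanged, 1826 on the authors' table with the slide block and 983 on slide 2 alone. It was 101 with normexp, 143 when probes had to be above background on all 6 arrays and 8 by the methods' t-test, and 86 to 242 with single arrays left out. With the slide block it was 983 without either slide 1 array, which is the same fit as slide 2 alone. It was 1549 and 732 after single culture replicate 2 or 3 was left out. After mix culture replicate 2 or 3 was left out it was 1158 and 1057. Early gene probes called went from 0 to 4 with the slide block, the replicate block, its exchanged form and slide 2 alone, and to 5 on the authors' table. With single arrays left out they were 0 without a block and 3 to 4 with the slide block. Their median log2 change of 0.32 lay between 0.106, after loss of single culture replicate 1, and 0.503, after loss of mix culture replicate 1,, and was 0.31 without the FOSL2 probes. JUNB reversed to -0.006 without mix culture replicate 3 (highest value 0.527, without mix culture replicate 1), and no other early gene probe changed sign under any alternative run. The replicate block made no early gene call other than those of the slide block. Alternatives chosen after seeing the data were slide 2 alone, the exchanged block, the median without FOSL2, the FOSL2 to FOSL1 ratio under normexp and the slide block with arrays left out. The dim FOSL2, FOSL1, JUNB and NR4A2 probes limit what signal over background allows. Normexp was run without a block only, and the effect of its offset of 50 was not separated from that of the background correction. The causes of these shifts were not tested.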
